A study of Rattus norvegicus with 4 samples.

Results

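The genes described here encode the main enzymes of xenobiotic metabolism: cytochromes P450 of families 1 to 4, glutathione S-transferases (cytosolic Gst and membrane-bound Mgst), UDP-glucuronosyltransferases (Ugt) and sulfotransferases (Sult). They were chosen as the protein-coding rows of the deposited gene table whose symbols begin with Cyp1 to Cyp4 and a letter, Gst and a letter, or Mgst, Ugt or Sult and a number. This gave 55 of 17768 rows, of which 25 were Cyp, 21 Gst or Mgst, 4 Ugt and 5 Sult genes.

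Cytochromes P450 are haem enzymes that add oxygen to drugs, pollutants, fatty acids and steroids, taking electrons from the reductase Por. Transferases then attach glutathione, glucuronic acid or sulfate, which makes the product more soluble and ready for export. In the kidney these reactions are known mainly from the proximal tubule, where rat Cyp2c and Cyp4 enzymes also turn arachidonic acid into vasoactive lipids.

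RNA was sequenced from NRK-52E, a long-established line of rat kidney epithelial cells, in 2 libraries titled lv_Mettl3 and 2 titled lv_nc. Per the labels, the lv_Mettl3 line came from infection with a lentivirus (pLVX-IRES-Puro) that carries a murine Mettl3 cDNA, followed by puromycin selection. The labels of all 4 libraries, lv_nc included, give puromycin at 0.5 mg/ml for selection and 0.25 mg/ml for maintenance. They also give virus collection at 48 h and 10% serum for all 4. Mettl3 catalyses the N6-methylation of adenosine in RNA. The meaning of nc is not spelled out, and all 4 libraries carry the treatment label untreated. The labels state neither whether a line is 1 clone nor whether replicates were separate cultures, so p-values measure spread among libraries that may be technical replicates.

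Recovered gene reads were between 15068898 and 16622255 per library. Values below are normalized read counts (read counts divided by 1 size factor per library), with means ± SD (n = 2 libraries per group), and fold changes are lv_Mettl3 over lv_nc on the log2(value + 1) scale of limma unless DESeq2 is named. Mettl3 itself had 757 and 700 in the lv_Mettl3 libraries and 719 and 767 in the lv_nc libraries (log2 fold change -0.03, SE 0.11, limma adjusted p = 0.931), so the titled gene did not separate the groups, which are called by their labels throughout. Whether reads of the murine cDNA were counted in this rat row is not stated. Of 12 proximal tubule markers 8 were in the table, 2 with a mean over the 4 libraries of at least 50, 3 between 10 and 50 and 3 under 10. Ggt1 was abundant, while the endocytic receptor genes Lrp2 and Cubn were at most 1.95 and 20.3. Of 7 epithelial markers 5 were in the table, 2 with a mean of at least 50 and 3 under 10. Krt8 was abundant, and Cdh1 was at most 8.79.

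Most of these enzyme genes had few reads in NRK-52E. Of the 55 genes, 28 had a mean over the 4 libraries under 10, 7 had a mean between 10 and 50, and 20 reached 50. A total of 17 had no read in at least 1 library. Of the 20, 16 had a log2 fold change within 0.5 of 0 (80%), beside 89.0% of all genes at that level. The filter for limma (2 or more libraries at a value of 1 or higher) left 46; the 9 not tested were Cyp2b2, Cyp2d3, Cyp2t1, Cyp2w1, Cyp3a62, Cyp4f40, Gsta5, Gstm3l and Ugt2a3. Limma called 0 of the 46 at an adjusted p of 0.05 (background 0.0183% of 16391 genes), and edgeR called 0 (background 0.0305%). At an unadjusted p under 0.05 limma had 3 of 46 (background 10.5%), Mgst2 and Cyp4v3 higher (background 5.54%) and Gstm3 lower (background 4.93%). DESeq2 gave an adjusted p to 24 of the 55 and called 2 (background 2.52% of 12601 genes), 1 lower, Gstm3 (background 1.07%), and 1 higher, Mgst2 (background 1.45%).

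**Figure D1:**
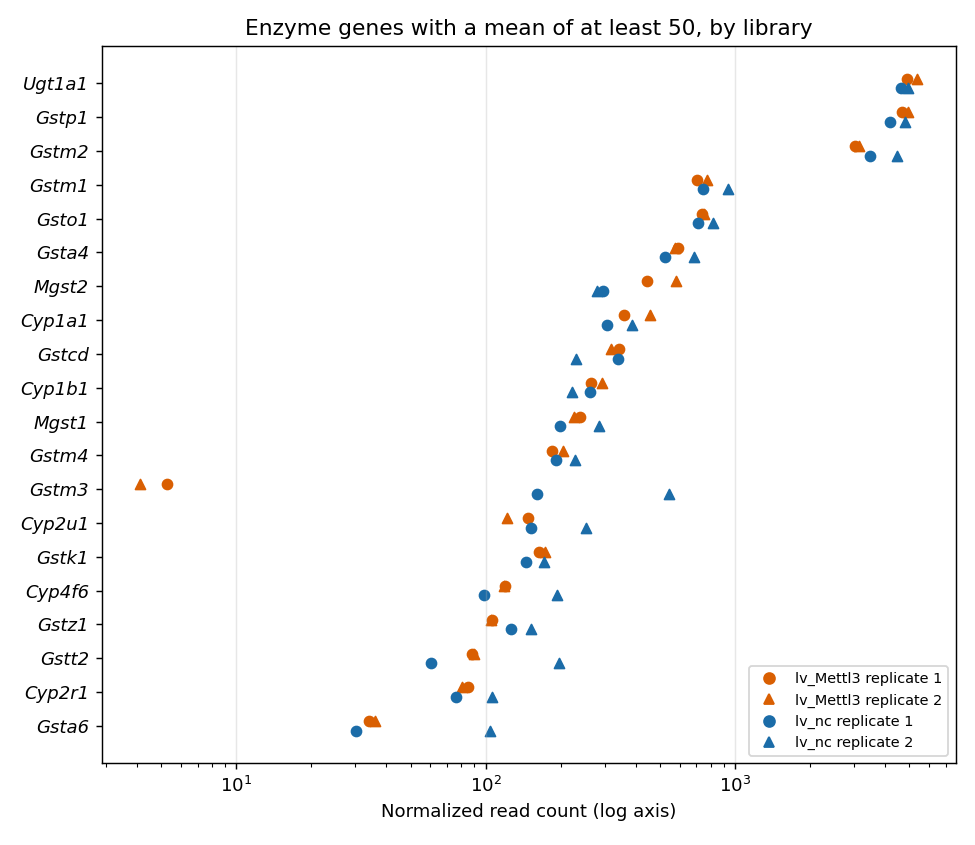
Normalized read counts (log axis) of the 20 enzyme genes whose mean reached 50, with 1 point per library; orange points are lv_Mettl3, blue points lv_nc, and circles and triangles are replicates 1 and 2. Gstm3 stands at 5.30 and 4.13 in lv_Mettl3 against 161 and 545 in lv_nc, and for 13 of the 20 genes lv_nc replicate 2 is the highest library.

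Levels differ widely between the families when read per kilobase of deposited gene length. Gst and Mgst genes held 92.4% and 92.2% of the summed count per kilobase of all 55 genes in the lv_Mettl3 libraries and 92.4% and 92.5% in the lv_nc libraries. Ugt genes held 4.23% and 4.36% in lv_Mettl3 and 4.35% and 3.76% in lv_nc, Cyp genes held between 3.09% and 3.49% in all 4 libraries, and Sult genes at most 0.259%. The pi-class gene Gstp1 alone held 49.1% and 48.2% in lv_Mettl3 and 47.1% and 44.3% in lv_nc. Next per kilobase, averaged over the 4 libraries, came Gstm2 (1770), Mgst2 (1041), Gstm1 (707), Gsto1 (687), Gsta4 (587) and Ugt1a1 (530), against 6036 for Gstp1. The neighbours Gstm1 and Gsto1 in this order do not differ beyond the spread of their libraries. The place of Mgst2 rests on its deposited length of 384 bases, the shortest of the 55, whose median is 1745.

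**Figure D2:**
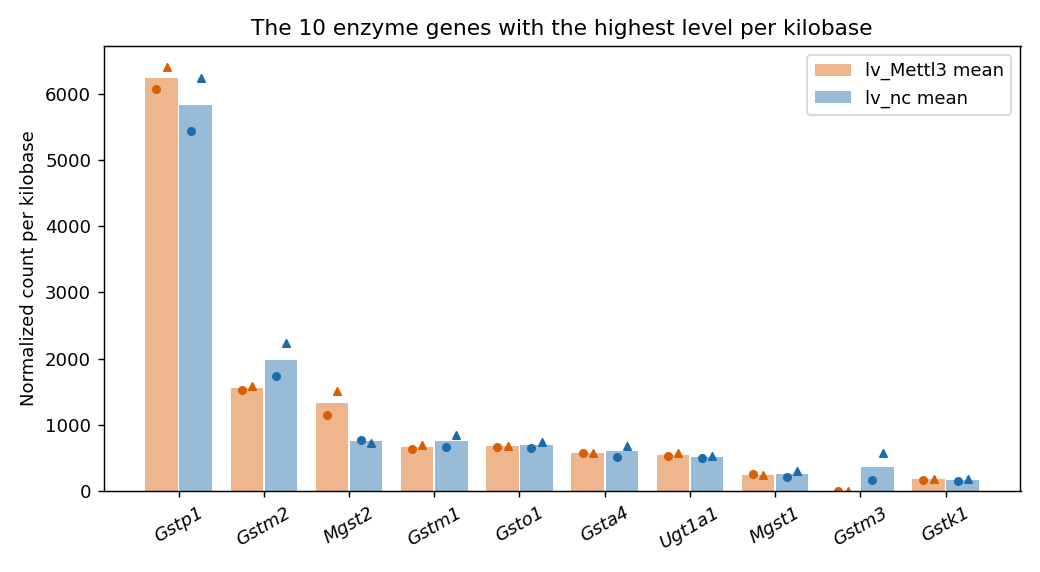
Normalized count per kilobase of deposited gene length for the 10 genes with the highest mean; bars are group means, with lv_Mettl3 left of lv_nc, and points are single libraries. Gstp1 stands far above the others, Mgst2 is higher in both lv_Mettl3 libraries, and Gstm3 is near 0 in lv_Mettl3.

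Among the cytochromes P450, none was called, and the dioxin-inducible genes Cyp1a1 and Cyp1b1 had the highest normalized counts. Per kilobase Cyp1a1 was first (143, mean of the 4 libraries), and Cyp1b1 (47.4) stood below Cyp4f6 (73.6), Cyp2u1 (65.4) and Cyp2r1 (51.4). Cyp1a1, which oxidises polycyclic aromatic hydrocarbons and is the classical target of the aryl hydrocarbon receptor (AHR), had 358 and 458 in the lv_Mettl3 libraries and 307 and 385 in the lv_nc libraries. The groups overlapped (log2 fold change 0.24, SE 0.20, limma adjusted p = 0.657). Cyp1b1, which also hydroxylates oestradiol, had 264 and 292 in lv_Mettl3 and 263 and 222 in lv_nc. The groups did not overlap, but replicate 1 of lv_Mettl3 and replicate 1 of lv_nc were nearly equal (log2 fold change 0.20, SE 0.17, limma adjusted p = 0.662).

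Of the 15 Cyp2 genes, 2 reached a mean of 50. Cyp2u1, a fatty acid hydroxylase, had 148 and 122 in lv_Mettl3 and 151 and 254 in lv_nc. Both lv_Mettl3 libraries were lower, but lv_nc replicate 1 was close to them (log2 fold change -0.54, SE 0.30, limma adjusted p = 0.551), and without lv_nc replicate 2 the log2 fold change was -0.17. Cyp2r1, the vitamin D 25-hydroxylase, had 84.8 and 80.6 in lv_Mettl3 and 76.2 and 106 in lv_nc, so that the lv_nc libraries enclosed both lv_Mettl3 libraries. Cyp2c23, the main arachidonic acid epoxygenase of the rat kidney, was at 2.12 and 1.03 in lv_Mettl3 and 0.977 and 7.39 in lv_nc, which are 1 to 8 reads. Cyp2c11, a male-specific liver form in rats, was at most 4.88 in any library. The 2 Cyp3 genes, Cyp3a9 and Cyp3a62, reached at most 5.30.

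In family 4, whose enzymes hydroxylate the ends of fatty acids, Cyp4f6 was the most abundant. It had 120 and 119 in the lv_Mettl3 libraries and 98.7 and 193 in the lv_nc libraries (log2 fold change -0.21, SE 0.36, limma adjusted p = 0.843). The 2 lv_Mettl3 libraries were almost equal and lay between the lv_nc libraries. Cyp4v3 had 20.1 and 28.9 in lv_Mettl3 and 5.86 and 12.9 in lv_nc, with no overlap of the groups at a low level (log2 fold change 1.36, SE 0.52, limma adjusted p = 0.473). The rows Cyp4f5 and Cyp4f17, at most 21.7 and 18.5 in any library, overlap on the same strand for 16270 bases, so their split of reads is uncertain. Over all 19 tested Cyp genes, the median log2 fold change was -0.03, with 9 above 0 and 10 below, against a median of 0.01 over all genes tested.

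Rows outside the naming rule also carry Cyp descriptions. LOC100361547, described as a Cyp2c7-like gene, had 55.1 and 53.7 in lv_Mettl3 and 20.5 and 25.8 in lv_nc (limma adjusted p = 0.417). LOC108348266, described as cytochrome P450 2B1, had 44.5 and 48.6 in lv_Mettl3 and 44.0 and 63.7 in lv_nc. Both were higher than every Cyp2b and Cyp2c gene of the rule, so the low counts of those named genes do not cover all rows described with these subfamilies.

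**Figure D3:**
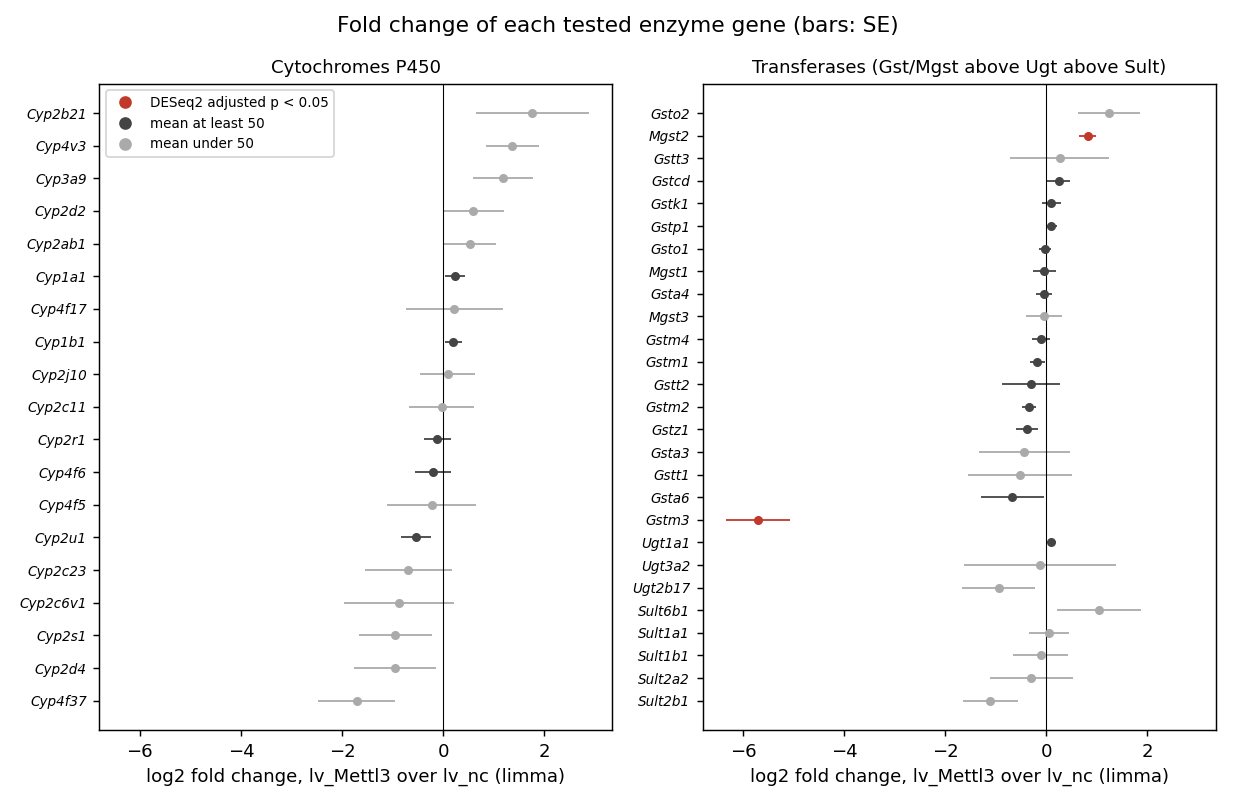
Log2 fold change of lv_Mettl3 over lv_nc (limma, bars are SE) for the 46 tested genes, with Cyp genes on the left and Gst and Mgst above Ugt above Sult genes on the right; red marks a DESeq2 adjusted p under 0.05, dark grey a mean of at least 50 and light grey a lower mean. Gstm3 lies at -5.71 and Mgst2 at 0.81, and most dark points lie within 0.5 of 0.

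The glutathione S-transferases held both genes called by DESeq2. The row named Gstm3 (ENSRNOG00000049743, chromosome 2, 210685197 to 210688272, plus strand; these are the deposited coordinates, whose genome build the sources used here do not name) belongs to the mu class of soluble transferases. It fell in DESeq2 to 5.30 and 4.13 in the lv_Mettl3 libraries (5 and 4 reads), against 161 and 545 in the lv_nc libraries. The groups were far apart, and the lv_nc libraries themselves differed by 3.38 times. The means were 4.72 ± 0.826 in lv_Mettl3 and 353 ± 271 in lv_nc (DESeq2 log2 fold change -6.23, SE 0.66, DESeq2 adjusted p = 8.94e-18). With limma the log2 fold change was -5.71 (SE 0.63, limma adjusted p = 0.165), and robust empirical Bayes gave an adjusted p of 0.0455. Pooled reads were 9 in lv_Mettl3 and 755 in lv_nc, a ratio of lv_nc over lv_Mettl3 of 76.1 after scaling, with an exact 95% interval of 39.9 to 167 that covers counting error only. DESeq2 called it in all 4 fits that left out 1 library, at log2 fold changes from -6.86 to -5.10. In the authors' deposited statistics 2 of these enzyme genes had an adjusted p under 0.05, Gstm3 and Mgst2. Gstm3 is the one among the 167 rows of the short table, where the smallest absolute log2 fold change is 1.00. In bulk RNA, fewer cells that make a transcript and less of it per cell cannot be told apart.

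Which mu enzyme that row counts is uncertain. In RefSeq (GRCr8) the symbol Gstm3 is the name of 1 gene and a listed synonym of 2 others, Gstm5 and Gstm7, and the gene now named Gstm3 has both Gstm3l and Gstm4 among its synonyms, which are also names of separate rows here. The row Gstm3l in the deposited table had 0 and 0 in lv_Mettl3 and 0 and 3.69 in lv_nc. The other mu rows lie beside it on chromosome 2, on the minus strand and within 146 kb. Gstm2 had 3041 and 3155 in the lv_Mettl3 libraries and 3463 and 4445 in the lv_nc libraries, so that both lv_Mettl3 libraries were lower (log2 fold change -0.34, SE 0.14, limma adjusted p = 0.488). DESeq2 did not call Gstm2 with all 4 libraries (adjusted p = 0.395) or with lv_Mettl3 replicate 1, lv_Mettl3 replicate 2 or lv_nc replicate 2 left out (adjusted p = 1.00 each). With lv_nc replicate 1 left out its adjusted p was 0.000218 (DESeq2 log2 fold change -0.52), in a fit with 1 lv_nc library that called 1547 genes, against 318 with all 4 libraries. Gstm1 had 705 and 771 in lv_Mettl3 and 743 and 940 in lv_nc, and Gstm4 had 184 and 204 in lv_Mettl3 and 191 and 228 in lv_nc, both with overlapping groups. No mu row was higher on average in lv_Mettl3. Mu genes are close copies and the Gstm2 row spans 62.2 kb, so reads may be split between rows, and these values are uncertain. On the other side of Gstm3, 135 kb away, the growth factor gene Csf1 was higher in lv_Mettl3 (2093 and 2091 against 924 and 787 in lv_nc).

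Mgst2, a membrane enzyme that can make leukotriene C4 (ENSRNOG00000061857, chromosome 2, 140708397 to 140727281), rose in DESeq2. It had 442 and 581 in the lv_Mettl3 libraries and 295 and 281 in the lv_nc libraries. Both lv_Mettl3 libraries were above both lv_nc libraries, and the lv_Mettl3 pair was the wider one. The means were 511 ± 98.0 in lv_Mettl3 and 288 ± 10.2 in lv_nc (DESeq2 log2 fold change 0.83, SE 0.24, DESeq2 adjusted p = 0.0270; limma adjusted p = 0.385). Its DESeq2 call was lost when any library but lv_nc replicate 1 was left out. The fit without lv_nc replicate 1 called far more genes than the fit with all libraries, so it is weak evidence that the call holds. The DESeq2 log2 fold change was 1.01 without lv_Mettl3 replicate 1 and 0.62 without lv_Mettl3 replicate 2. It was 0.86 without lv_nc replicate 1 and 0.79 without lv_nc replicate 2. Its relatives stayed uncalled: Mgst1 had 239 and 225 in lv_Mettl3 and 198 and 286 in lv_nc, and Mgst3 had 21.2 and 25.8 in lv_Mettl3 and 26.4 and 22.2 in lv_nc.

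Other abundant transferases differed by less than their spread between libraries. Gstp1, which conjugates many electrophiles, had 4672 and 4921 in lv_Mettl3 and 4176 and 4799 in lv_nc (log2 fold change 0.10, SE 0.10, limma adjusted p = 0.731). Gsta4, which detoxifies the lipid peroxidation product 4-hydroxynonenal, had 588 and 576 in lv_Mettl3 and 526 and 683 in lv_nc. Gsto1, an omega-class enzyme that reduces dehydroascorbate, had 736 and 754 in lv_Mettl3 and 709 and 814 in lv_nc. For both genes the lv_nc libraries enclosed the lv_Mettl3 libraries. Gsto1 lies within the Gsto2 row on the same strand, and Gsto2 was at most 9.54.

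Among the less abundant ones, Gstz1, which acts in tyrosine breakdown as maleylacetoacetate isomerase, had 106 and 105 in lv_Mettl3 and 126 and 152 in lv_nc. These groups did not overlap (log2 fold change -0.39, SE 0.21, limma adjusted p = 0.543). Gsta6 had 33.9 and 36.2 in lv_Mettl3 and 30.3 and 104 in lv_nc, and the theta-class gene Gstt2 had 88.0 and 89.9 in lv_Mettl3 and 60.6 and 198 in lv_nc. In both cases the lv_Mettl3 pair lay above lv_nc replicate 1 and far below lv_nc replicate 2. The log2 fold changes were -0.67 for Gsta6 and -0.30 for Gstt2. Without lv_nc replicate 2 they were 0.20 and 0.55. Gstcd, which is named for its transferase-like domain, had 342 and 318 in lv_Mettl3 and 339 and 230 in lv_nc, and the mitochondrial and peroxisomal Gstk1 had 164 and 174 in lv_Mettl3 and 145 and 172 in lv_nc. The row Gsta3 held at most 2.77, whereas LOC108348061, which covers it on the opposite strand and is described as glutathione S-transferase alpha-3, had 469 and 370 in lv_Mettl3 and 237 and 422 in lv_nc. Without a stated strand setting these 2 cannot be told apart. Of the 19 tested Gst and Mgst genes, 6 had a log2 fold change above 0 and 13 below, with a median of -0.04.

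Sequences upstream of 3 abundant transferase genes are shown as examples. The RefSeq table (build GRCr8) gave a window of 250 bases before to 50 after the start for 38 of the 55 genes, matched by symbol where the symbol was unambiguous and chromosome and strand were those of the deposited row. TGACNNNGC, the core of the antioxidant element bound by Nrf2, was found on either strand in 5 of the 38 windows (13.2%) and in 12.2% of 27457 windows of all genes. GCGTG, the core of the AHR element, was found on either strand in 14 of the 38 (36.8%) and in 31.1% of all. These shares are descriptions, and a match is not a binding site. The 3 genes shown were not picked by rank. Gstm1 and Gsto1 were higher per kilobase than Gsta4 (707 and 687 against 587) and had no match of either core. Cyp1a1 and Cyp1b1 had no matched window. Capitals mark the matches in the 250 bases before the start, each written 5′ to 3′ along the gene. Gstp1 (chr1:210769706-210769955, minus strand) has 1 antioxidant core at -61 and 1 AHR core at -238, Gsta4 (chr8:87947015-87947264, plus strand) has 3 AHR cores at -210, -86 and -73, and Gstm2 (chr2:198316918-198317167, minus strand) has neither.
Gstp1: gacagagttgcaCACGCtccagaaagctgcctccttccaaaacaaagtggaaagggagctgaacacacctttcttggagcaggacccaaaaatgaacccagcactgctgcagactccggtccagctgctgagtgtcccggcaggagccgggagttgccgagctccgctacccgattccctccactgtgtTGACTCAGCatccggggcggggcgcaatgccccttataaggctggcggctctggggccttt
Gsta4: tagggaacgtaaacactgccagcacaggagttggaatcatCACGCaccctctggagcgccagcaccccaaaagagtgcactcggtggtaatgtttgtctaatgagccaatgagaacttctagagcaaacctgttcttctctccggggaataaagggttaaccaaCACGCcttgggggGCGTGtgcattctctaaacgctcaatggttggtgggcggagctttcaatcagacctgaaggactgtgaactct
Gstm2: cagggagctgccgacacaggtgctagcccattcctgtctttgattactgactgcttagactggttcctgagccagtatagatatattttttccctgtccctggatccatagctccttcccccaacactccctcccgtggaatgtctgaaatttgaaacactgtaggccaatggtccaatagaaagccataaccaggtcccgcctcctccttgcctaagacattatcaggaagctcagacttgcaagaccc

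Of the 4 Ugt rows of the naming rule, 1 reached a mean of 50. Glucuronosyltransferase rows outside the rule are not covered here. Ugt1a1, named for the enzyme that conjugates bilirubin, had 4891 and 5353 in the lv_Mettl3 libraries and 4617 and 4939 in the lv_nc libraries (log2 fold change 0.10, SE 0.10, limma adjusted p = 0.703). The groups overlapped by a narrow margin. The row spans 142 kb on chromosome 9, and Ugt1a enzymes are made from 1 locus with separate first exons and shared later exons, so its reads may come from several Ugt1a forms. The steroid-conjugating Ugt2b17 was at most 2.93 and Ugt2a3 at most 3.69. Ugt3a2 was at 0 and 7.23 in lv_Mettl3 and 8.79 and 0 in lv_nc.

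The 5 Sult genes of the naming rule were low in all libraries, and none was called. Rows outside the rule are not covered here for sulfotransferases. Sult1a1, which sulfates phenols, had 13.8 and 15.5 in the lv_Mettl3 libraries and 12.7 and 15.7 in the lv_nc libraries. Sult2b1, which sulfates cholesterol, had 14.8 and 8.27 in lv_Mettl3 and 17.6 and 36.0 in lv_nc, with no overlap (log2 fold change -1.11, SE 0.54, limma adjusted p = 0.516). Sult1b1, Sult2a2 and Sult6b1 were at most 8.31 in any library, a level at which 1 read is worth about 1 and no difference was detectable at this depth.

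The replicates of the enzyme genes were closer in lv_Mettl3 than in lv_nc. Over the 20 genes whose mean reached 50, the median absolute log2 difference between replicates was 0.09 in lv_Mettl3 and 0.35 in lv_nc, where over all genes at that level it was 0.11 in lv_Mettl3 and 0.22 in lv_nc. In lv_nc replicate 2 the value was above that of lv_nc replicate 1 for 17 of the 20 (85%), beside 49.8% of all genes at that level, and by over 1.5 times for 5 of the 20 (25%), beside 7.05%. Those 5 were Gsta6, Gstm3, Gstt2, Cyp4f6 and Cyp2u1, at 3.44, 3.38, 3.26, 1.96 and 1.68 times. That library was also the highest of the 4 for 13 of the 20, beside 36.2% of all genes at that level. Gsta6 reached a mean of 50 only through lv_nc replicate 2 (104, against 33.9 and 36.2 in lv_Mettl3 and 30.3 in lv_nc replicate 1). Gstm3 reached it only through lv_nc (161 and 545, against 5.30 and 4.13 in lv_Mettl3). Their place in counts over the 20 genes therefore follows in part from the filter. Groups did not overlap for 12 of 46 tested enzyme genes (background 45%) and for 6 of the 20 (background 47.4%).

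**Figure D4:**
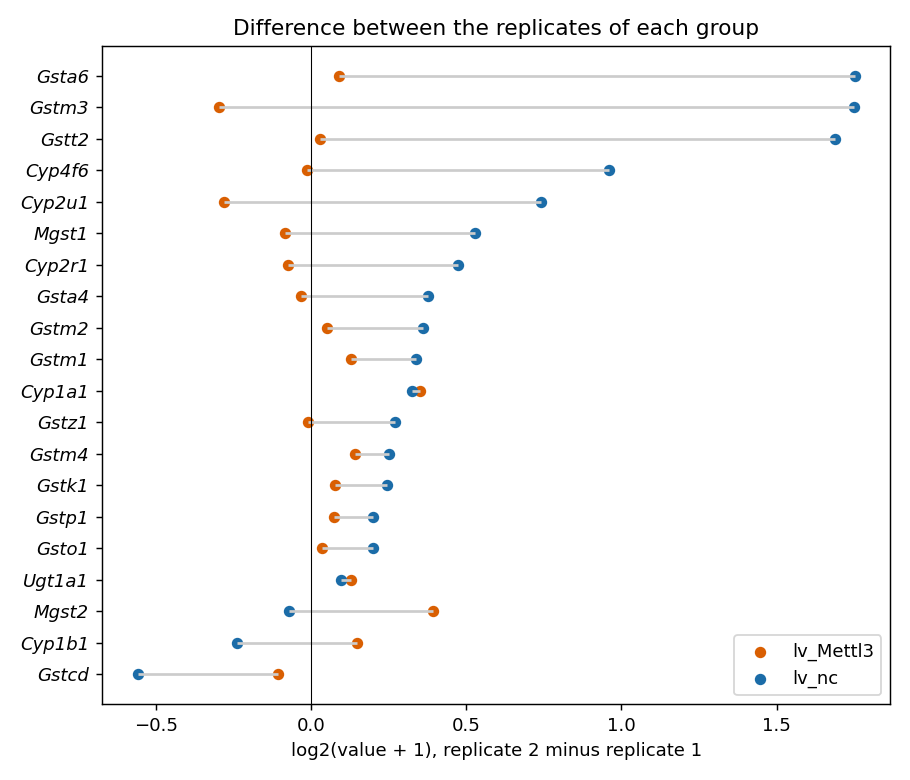
Difference between replicate 2 and replicate 1 of each group in log2(value + 1) for the 20 genes whose mean reached 50; orange is lv_Mettl3 and blue is lv_nc. For lv_nc, 17 points lie to the right of 0, with Gsta6 at 1.75, Gstm3 at 1.75 and Gstt2 at 1.69, whereas the lv_Mettl3 points lie between -0.30 and 0.39.

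Fibroblast and smooth muscle markers were lower in sum in the lv_Mettl3 libraries. Of 10 markers 6 were in the table, and their summed level was 5150 and 4552 in the lv_Mettl3 libraries and 13425 and 17568 in the lv_nc libraries. Of the 5 with an adjusted p, DESeq2 called 4 lower (background 1.07%), namely Col1a1, Col3a1, Col1a2 and Acta2. Limma called 0 of the 6, and edgeR called 0. Tagln overlapped between the groups, and the receptor gene Pdgfra was at most 3.10. Between the lv_nc libraries the collagens were higher in replicate 2 (Col1a1 8706 against 3914 in replicate 1), and Acta2 was lower (748 against 1531). Their part in the fall of Gstm3 and in the spread of the lv_nc libraries was not tested. Hepatocyte markers summed to at most 8.31 and macrophage markers to at most 62.0 in any library.

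Genes that serve these enzymes, taken from 8 lists, were examined beside them. The lists were chosen with earlier results of these data known, so their counts beside the background do not test the lists. Leaving out the enzymes themselves, 91 of 106 symbols were in the table and 88 were tested. Limma called 0 and DESeq2 called 5, all higher: Akr1b8, Aldh3a1, Nqo1, Tiparp and Ggt1, among 79 with an adjusted p (background 1.45% higher and 1.07% lower). At an unadjusted limma p under 0.05, 13 of the 88 were higher (background 5.54%) and 5 lower (background 4.93%). The median log2 fold change of the 88 was -0.0003, with 44 above 0 and 44 below.

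The 3 of these that also belong to the AHR list rose in DESeq2 (background 1.45% higher), while its Cyp members were not called. Aldh3a1, an aldehyde dehydrogenase, had 666 and 552 in the lv_Mettl3 libraries and 249 and 196 in the lv_nc libraries (DESeq2 log2 fold change 1.45, SE 0.24, DESeq2 adjusted p = 5.45e-07; limma adjusted p = 0.253). Nqo1, a quinone reductase induced by both Nrf2 and AHR, had 10730 and 11845 in lv_Mettl3 and 7705 and 8137 in lv_nc (DESeq2 log2 fold change 0.51, SE 0.14, DESeq2 adjusted p = 0.0157; limma adjusted p = 0.373). Tiparp, which encodes an ADP-ribosyltransferase that represses AHR, had 1005 and 989 in lv_Mettl3 and 691 and 498 in lv_nc (DESeq2 log2 fold change 0.75, SE 0.21, DESeq2 adjusted p = 0.0206; limma adjusted p = 0.399). In all 3 both lv_Mettl3 libraries were above both lv_nc libraries, as in 3853 of all 16391 genes tested. Their choice as DESeq2 calls higher in lv_Mettl3 favours this. Of the list's 9 symbols 6 were in the table, and the other 3 of these, Cyp1a1, Cyp1b1 and the repressor Ahrr, had log2 fold changes of 0.24, 0.20 and -0.08. Whether Aldh3a1, Nqo1 and Tiparp differed from Cyp1a1 and Cyp1b1 in response was not tested. Leaving out 1 library ended the DESeq2 call of Aldh3a1 without lv_Mettl3 replicate 1 (adjusted p = 0.192), of Nqo1 without either lv_Mettl3 library (adjusted p = 1.00 each), and of Tiparp without either lv_Mettl3 library (adjusted p = 1.00 each) or lv_nc replicate 2 (adjusted p = 0.224).

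Among other oxidation and conjugation enzymes, the aldo-keto reductase gene Akr1b8 had 7218 and 7726 in lv_Mettl3 and 3261 and 2478 in lv_nc (DESeq2 log2 fold change 1.38, SE 0.17, DESeq2 adjusted p = 1.81e-13; limma adjusted p = 0.165), and DESeq2 called it without each library in turn. In that list DESeq2 called 3 of 16 higher (background 1.45%) and 0 lower (background 1.07%). Besides Akr1b8 these were Aldh3a1 and Nqo1, which are also counted in the AHR list. Epoxide hydrolase genes were lower on average in lv_Mettl3 and were not called: Ephx2 had 42.4 and 44.4 in lv_Mettl3 and 71.3 and 144 in lv_nc, and Ephx1 had 186 and 224 in lv_Mettl3 and 231 and 485 in lv_nc.

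For glutathione supply, DESeq2 called 1 of 13 (background 2.52%). This was Ggt1, which breaks glutathione down at the brush border (3294 and 3757 in lv_Mettl3 against 2412 and 2530 in lv_nc, DESeq2 adjusted p = 0.0345). The call was lost without either lv_Mettl3 library (adjusted p = 1.00 each). Gclc, the rate-limiting enzyme of glutathione synthesis, had 3506 and 3299 in lv_Mettl3 and 3500 and 2752 in lv_nc, and the cystine carrier gene Slc7a11 had 172 and 119 in lv_Mettl3 and 70.3 and 56.3 in lv_nc (DESeq2 adjusted p = 0.0886).

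Electron transfer and haem genes had no call among 12, with Por at 1814 and 2154 in lv_Mettl3 and 1922 and 2574 in lv_nc. Genes that supply glucuronic acid and sulfate donors had no call among 11. Ugdh, which makes UDP-glucuronic acid, had 2907 and 2910 in lv_Mettl3 and 2526 and 2525 in lv_nc (limma adjusted p = 0.486). Impad1, a phosphatase for the by-product of sulfation, had 558 in lv_Mettl3 replicate 1 and between 18.6 and 28.9 in the other 3 libraries. Conjugate exporters had no call among 7, with the glutathione conjugate pump Abcc1 at 1336 and 1476 in lv_Mettl3 and 1149 and 1171 in lv_nc. Conjugate hydrolases had no call among 7. With a DESeq2 background of 2.52%, lists of this size would often have no call, so these counts do not show an absence of change.

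Among the receptors and regulators, DESeq2 called 1 of 13, Tiparp (background 2.52%). Ahr had 1579 and 1540 in the lv_Mettl3 libraries and 1229 and 1080 in the lv_nc libraries, and its partner Arnt had 859 and 830 in lv_Mettl3 and 1041 and 1135 in lv_nc (DESeq2 adjusted p = 0.193 and 0.412). The groups did not overlap for either gene (background 45% of genes tested). Nfe2l2, which encodes Nrf2, had 3576 and 3127 in lv_Mettl3 and 2848 and 2655 in lv_nc. The pregnane X receptor gene Nr1i2 was at most 1.06 in any library.

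**Figure D5:**
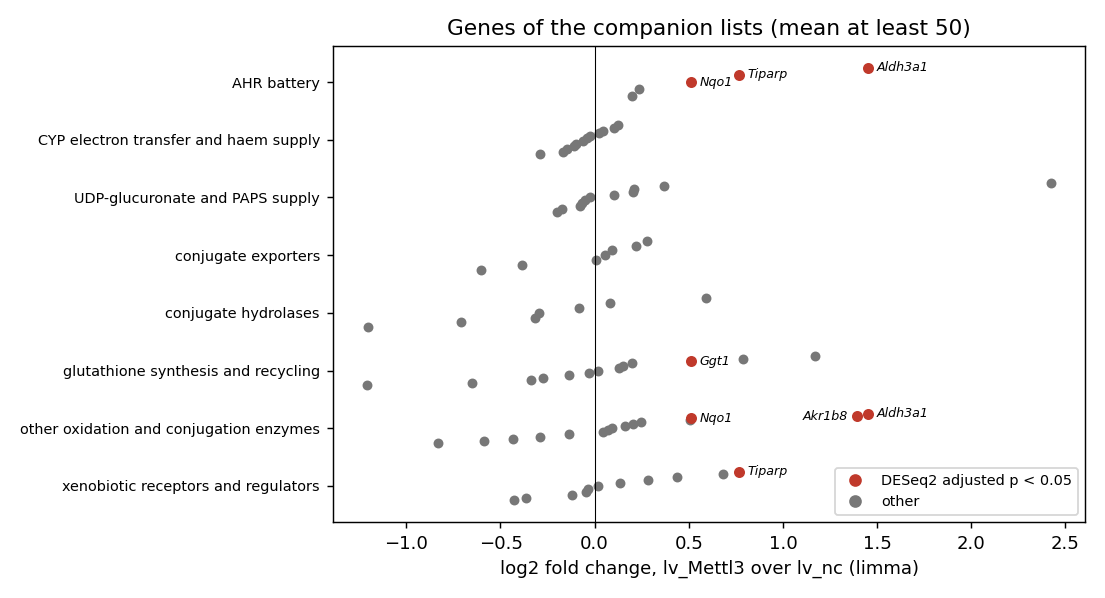
Log2 fold change of lv_Mettl3 over lv_nc (limma) for genes of the 8 lists whose mean reached 50; each point is a gene, genes in several lists appear in each, and red marks a DESeq2 adjusted p under 0.05. The red points, Nqo1, Tiparp, Aldh3a1, Ggt1 and Akr1b8, all lie to the right of 0, and the isolated grey point at 2.43 is Impad1, which is high in 1 library.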

How the data were processed

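RNA-seq of 4 NRK-52E libraries was analysed. Per the labels' protocols, virus was collected at 48 h, selection used 0.5 and maintenance 0.25 mg/ml puromycin, and serum was 10%. Per the submitters' processing notes, CASAVA 1.4 and HISAT2 were used; no source used here names the counter, genome build, annotation or strand setting. Per library, the deposited value is a signal, a read count over 1 size factor: within 0.001 reads, 100% of values were whole multiples of the smallest positive value, and whole reads were recovered from these steps. Group means are also deposited. The authors also deposited log2 fold changes and raw and adjusted p-values of their own, per the file headers, naming no tool. These match the DESeq2 fit described below, with an adjusted p of 8.94e-18 for Gstm3 and 0.0270 for Mgst2 in both. Each has 318 genes at an adjusted p under 0.05, so the deposited statistics are no separate support. Gene lengths are as deposited.

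Limma 3.58.1 (trend) was fitted to log2(value + 1) over all 16391 genes that reached 1 in 2 or more libraries, and p-values were adjusted by Benjamini-Hochberg (threshold 0.05). DESeq2 1.42.0 and edgeR 4.0.16 (quasi-likelihood) on the recovered reads were alternatives. An adjusted p that DESeq2 gave as NA was kept as NA. DESeq2 calls are given beside limma's, and rose and fell are used of DESeq2 calls, because limma called 3 genes in all. Genes and lists were chosen with earlier results of these data known. Named enzyme genes were those called by a test, the highest per kilobase in each family, the 5 largest changes in each direction with a mean of at least 50 in the higher group, and those at an unadjusted limma p under 0.05 at that level; other genes were named after their values were seen. From the lists, called genes and abundant ones were named. Scripts were tested on simulated counts. Tools ran under R 4.3.3 and Python 3.11.15, with figures from matplotlib 3.10.9. Counting intervals do not cover variation between cultures.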

Additional observations from a re-analysis of the deposited data

How the results depend on the processing

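Limma called 0 of the enzyme genes, and 0 of the companion genes, with a pseudocount of 0.1 or 5, with no filter on low values, with at least 1 CPM in all 4 libraries, with TMM or library size scaling, with edgeR, with protein-coding genes only and without any 1 library. Robust empirical Bayes called 1 enzyme gene (Gstm3) and 1 companion gene (Akr1b8), and DESeq2 called 2 and 5. Over all genes limma called 3, against 0 with a pseudocount of 0.1, 5 with at least 1 CPM in all 4 libraries, 5 with edgeR, 5 with protein-coding genes only, 24 with robust empirical Bayes and 318 with DESeq2. Without 1 library limma called 0 genes each time, with 1 residual degree of freedom before moderation and the lone library assumed to vary like the other group. DESeq2 without 1 library, chosen after seeing the data, called 56 to 1547 genes, 1 to 3 enzyme genes and 1 to 14 companion genes; the count over all genes was 56 without lv_Mettl3 replicate 1, 61 without lv_Mettl3 replicate 2, 1547 without lv_nc replicate 1 and 217 without lv_nc replicate 2. Gstm3 has no value with at least 1 CPM in all 4 libraries, since that filter removes it.

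With the replicate number as a block, limma called 3 genes in all, 0 enzyme genes and 0 companion genes. Deviations of same-numbered libraries from their group means correlated at 0.325 over 10050 genes, and with 2 replicates the numbers are not taken as a pairing.

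Of 309 values of the 21 named enzyme genes under alternatives, 12 turned sign, all where 1 library was left out. Without lv_nc replicate 2 the log2 fold changes of Cyp2r1, Cyp4f6 and Gsta6 were 0.1163, 0.2716 and 0.2037, and those of Gstcd, Gsto1 and Sult1b1 were -0.03809, 0.07084 and 0.345. Leave-one-out ranges were -0.3567 to 0.1163 for Cyp2r1, -0.6887 to 0.2716 for Cyp4f6, -1.547 to 0.2037 for Gsta6, -0.03809 to 0.5204 for Gstcd, -0.02354 to 0.2228 for Gstk1, -0.1279 to 0.07084 for Gsto1, -0.00102 to 0.1995 for Gstp1, -0.09604 to 0.189 for Sult1a1, -0.5784 to 0.345 for Sult1b1 and -1.771 to 1.521 for Ugt3a2. The cause was not tested. Library size scaling moved the median of all genes by -0.04 on the log2 scale. Genes at a few reads per library allow no statement on a difference, and 2 libraries per group limit all of them.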
